A study of Mus musculus with 60 samples.

Results

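The 9 genes described here, Epcam, Sox9, Krt7, Krt8, Krt18, Krt19, Spp1, Cd44 and Prom1, are commonly used to mark bile duct cells and the organoids grown from them. They were chosen by name, each through the single Ensembl identifier that carries its symbol, out of 23440, 23068 and 28773 genes in the 3 count tables of the study. All 9 were present in each table and all 9 passed the filter on low counts in each experiment. Cholangiocytes line the bile ducts and carry a simple epithelial cytoskeleton of keratin filaments, each built from 1 type I and 1 type II keratin. Krt8 (type II) and Krt18 (type I) are made by hepatocytes and ductal cells alike, whereas Krt7 (type II) and Krt19 (type I) mark the biliary epithelium within the liver. Ductal cells that are activated after injury, or grown as organoids, typically carry the transcription factor Sox9, the adhesion molecule Epcam, the hyaluronan receptor Cd44, the membrane protein Prom1 (CD133) and the secreted protein Spp1 (osteopontin).

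The study grew cholangiocyte-derived organoids from the livers of C57BL/6N mice, given as 3 months old in the design text and 3-4 months old in the sample labels, and counted 3′ ends of mRNA with RNA-seq. In the culture experiment, 3 Matrigel dome cultures were compared with 3 cultures in dilute Matrigel on a shaker (suspension), made from pools of 2, 4 and 3 mice. According to the study both formats held the same organoids, but the main tests here treated them as unpaired. The passage experiment followed Sets 1, 3 and 4, each from 1 mouse, in bulk: every set was collected at passage 4 and once more at passage 11, as 2 technical replicates whose counts were summed here. In the single organoid experiment, 42 organoids were picked one by one from suspension cultures of 4 mice, and the 35 that passed the quality control of the study were used: 8 in Set 1 (passage 11), 10 in Set 2 (passage 3), 5 in Set 3 (passage 3) and 12 in Set 4 (passage 4). Mouse, passage and culture history cannot be told apart between the single organoid sets, and p-values there measure only the spread between organoids of 1 culture each. No genotype or treatment beyond the culture format is given in the labels. All organoids were started in domes, also those later moved to suspension.

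Levels are given as CPM, counts scaled to a fixed library total after TMM scaling within each experiment, so levels are comparable between libraries of 1 experiment but not between genes or between experiments. The culture libraries held 1776490 to 14761853 counts, the single organoid libraries 1059002 to 11175868 (median 2554162) and the technical replicates of the passage experiment 639086 to 3175147. The TMM factors lay at 0.724-1.03 in domes and 1.1-1.2 in suspension, and the mitochondrial share of counts was 1.64-2.02% for domes and 3.72-4.02% for suspension cultures. Without TMM the log2 difference of the median gene between domes and suspension moved by -0.39, and the share of called genes that were higher in domes went from 50.5% to 21.8%. The 9 ductal genes were counted in every library and summed to at least 5442 CPM in each single organoid, whereas mesenchymal markers summed to at most 0.69 CPM in any library. Endothelial markers summed to at most 3.83 CPM. Of the macrophage markers, Adgre1 and C1qa reached at most 1 count in the culture libraries and Ptprc at most 4 counts in any library. Cd68 and Csf1r were counted in every culture library, at up to 123 and 47 counts. Cd68 was at 41.2 ± 43.7 CPM in domes and 4.73 ± 2.87 CPM in suspension (SD). Most of that list's level came from Cd14, which epithelial cells can also express. Of the hepatocyte markers, Ttr reached 17922 counts in a single organoid, whereas Cyp2e1 never exceeded 4 counts and Tat never exceeded 1.

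The genes lie on 5 chromosomes of GRCm38. Krt7 (chr15:101411043-101430313, plus strand), Krt8 (chr15:101996698-102004482, minus strand) and Krt18 (chr15:102028180-102032027, plus strand) belong to the keratin cluster of chromosome 15, where Krt8 and Krt18 start back to back, 23698 bases apart. Krt19 is on chr11:100140810-100148665 (minus strand) and Sox9 on chr11:112782224-112787760 (plus strand). Spp1 (chr5:104435118-104441050, plus strand) and Prom1 (chr5:43993620-44102032, minus strand) share chromosome 5, Epcam lies on chr17:87635979-87651129 (plus strand) and Cd44 on chr2:102811141-102901665 (minus strand). The annotated spans of Krt7 and Gm671, of Krt8 and Gm36026, of Cd44 and Gm23731, and of Prom1 and Gm16401 overlap on opposite strands. The sources used here do not say whether strand was used in counting, so reads of these pairs may not have been separated. Spp1 overlaps Gm42793 and Prom1 overlaps Gm42716 on the same strand, where strand could not separate the reads. A processed pseudogene of Krt8, Krt8-ps on chromosome 7, could share reads with it.

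Promoter sequences are shown for 4 genes whose levels moved together or in opposite directions across single organoids, as described further down: Krt8 and Krt18, which rose and fell together, and Epcam and Cd44, which ran against Krt18. They are the bases just before the annotated start that lie in no annotated exon, 5′ to 3′ on the strand of the gene, from the RefSeq promoter table (GRCm38.p6). That table had entries for 7 of the 9 genes, Sox9 and Krt19 having none. Capitals mark a match to 1 of 5 motifs searched on both strands.
Krt8, chr15:102004483-102004592, minus strand: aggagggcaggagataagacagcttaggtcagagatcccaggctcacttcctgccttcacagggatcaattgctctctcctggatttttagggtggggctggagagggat
Krt18, chr15:102027966-102028179, plus strand: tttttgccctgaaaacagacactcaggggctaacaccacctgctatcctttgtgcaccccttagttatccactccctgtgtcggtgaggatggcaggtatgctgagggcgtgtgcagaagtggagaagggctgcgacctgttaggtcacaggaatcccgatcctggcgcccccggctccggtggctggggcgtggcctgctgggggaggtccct
Epcam, chr17:87635729-87635978, plus strand: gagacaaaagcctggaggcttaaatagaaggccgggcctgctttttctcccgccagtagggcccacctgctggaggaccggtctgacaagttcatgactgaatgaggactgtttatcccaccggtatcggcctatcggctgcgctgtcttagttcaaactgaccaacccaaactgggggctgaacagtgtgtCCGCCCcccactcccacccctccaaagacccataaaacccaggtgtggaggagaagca
Cd44, chr2:102901666-102901915, minus strand: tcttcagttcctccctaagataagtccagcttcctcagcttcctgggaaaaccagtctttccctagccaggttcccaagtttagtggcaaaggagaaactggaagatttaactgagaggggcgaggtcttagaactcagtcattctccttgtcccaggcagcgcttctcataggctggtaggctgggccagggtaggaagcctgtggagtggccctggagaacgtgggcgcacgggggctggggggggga
The motifs were the TATA box (TATAAA), the GC box (GGGCGG), the CCAAT box (CCAAT), AP-1 (TGANTCA) and TEAD (GGAATG). In these 4 stretches only 1 match was found, a GC box on the opposite strand of Epcam, a motif held by 32.7% of 32851 promoter windows of 250 bases. Windows of that length held the TATA, CCAAT, AP-1 and TEAD motifs in 12.4%, 33.8%, 6.75% and 12.6% of cases. In windows as long as that of Krt18 the shares were 9.71% for TATA, 27.6% for GC, 30.3% for CCAAT, 5.95% for AP-1 and 11.2% for TEAD. In windows as long as that of Krt8 they were 5.63%, 11.6%, 14.9%, 2.79% and 5.89% in the same order. These shorter windows were the part of each 250-base window farthest from its start. They therefore match the stretches of Krt18 and Krt8 in length, but not in distance from the annotated start. The window of Prom1, not shown, held 1 AP-1 match. It lies at chr5:44094769-44095018, within the span of the gene before an inner start, and not before the outermost start at 44102032. No match says only that these letters are absent from these windows.

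To address how the culture format relates to ductal gene expression, domes were compared with suspension cultures. All 4 keratins and Prom1 were higher in domes, Spp1 was lower, and Epcam, Sox9 and Cd44 did not pass the test. Thus 6 of 9 markers were called, 5 higher and 1 lower, against 29.8% of 12699 genes tested called in either direction, 15% higher and 14.7% lower. For the same 5 and 1 genes the 3 domes did not overlap the 3 suspension cultures, against 21.6% of all genes lying wholly higher and 25.8% wholly lower in domes.

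Krt19 showed the largest difference among the 9 genes. It was at 2614, 6363 and 3282 CPM in domes 1, 2 and 3 and at 957, 1160 and 954 CPM in suspension cultures 1, 2 and 3. Every dome was above every suspension culture, with dome 2 the highest. The fold was 3.99 (log2 difference 2.00, SE 0.35, adjusted p = 0.00381 in edgeR). Krt8 was at 3900, 4965 and 3313 CPM in domes and at 1573, 1695 and 1540 CPM in suspension, without overlap and with a narrow range in suspension. The fold was 2.53 (log2 difference 1.34, SE 0.25, adjusted p = 0.00481 in edgeR).

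Krt18, the type I partner of Krt8, was at 5438, 15611 and 7144 CPM in domes and at 3368, 3801 and 3253 CPM in suspension. All domes were higher, but dome 2 stood far above the others. The fold was 2.7 (log2 difference 1.43, SE 0.39, adjusted p = 0.0213 in edgeR). Without dome 2 the log2 difference was 0.85 (adjusted p = 0.0230 in edgeR), and the call was lost when suspension culture 1, 2 or 3 was left out (adjusted p = 0.0946, 0.0693 and 0.0926 in edgeR). Krt7 was at 945, 1417 and 1033 CPM in domes and at 573, 729 and 632 CPM in suspension, again without overlap. The fold was 1.75 (log2 difference 0.81, SE 0.23, adjusted p = 0.0268 in edgeR). This call was the least firm of the 6, since it was lost without suspension culture 1, 2 or 3 (adjusted p = 0.134, 0.0715 and 0.111 in edgeR) and with library totals in place of TMM (log2 difference 0.40, adjusted p = 0.135 in edgeR).

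Within a library, the ratio of 2 genes' counts does not depend on the scaling. The ratio of Krt7 to Krt8 counts was 0.242-0.312 in domes and 0.364-0.430 in suspension, so the 2 type II keratins changed unequally. The ratio of Krt8 to Krt18 was 0.717, 0.318 and 0.464 in domes 1, 2 and 3 and 0.446-0.473 in suspension. The domes therefore spread to both sides of the suspension cultures in this ratio of filament partners. The ratio of Epcam to Krt8 counts was 0.0765-0.124 in domes and 0.245-0.280 in suspension, without overlap.

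Prom1 was at 220, 198 and 174 CPM in domes and at 92.0, 92.3 and 96.5 CPM in suspension. It had the smallest relative spread of the 9 genes in suspension and was higher in each dome. The fold was 2.11 (log2 difference 1.08, SE 0.18, adjusted p = 0.00330 in edgeR). Spp1, which encodes a secreted ligand of integrins and Cd44, ran the other way. It was at 564, 755 and 1539 CPM in domes and at 2849, 3010 and 2866 CPM in suspension. All domes were lower, with dome 3 closest to the suspension cultures. Suspension exceeded domes 3.06-fold (log2 difference -1.61, SE 0.35, adjusted p = 0.00915 in edgeR), and without dome 3 the log2 difference was -2.17.

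Epcam was at 482, 380 and 297 CPM in domes and at 393, 416 and 431 CPM in suspension, and the domes spread to both sides. The log2 difference was -0.09 (SE 0.22, adjusted p = 0.774 in edgeR), and the 95% interval of the fold ran from 0.667 to 1.31. Sox9 was at 54.6, 90.1 and 81.8 CPM in domes and at 86.3, 86.4 and 71.3 CPM in suspension, with overlap (log2 difference -0.13, SE 0.22, adjusted p = 0.702 in edgeR, interval of the fold 0.649-1.29). Cd44 was at 169, 107 and 102 CPM in domes and at 139, 116 and 126 CPM in suspension. Only dome 1 was above the suspension cultures, and the interval of the fold ran from 0.702 to 1.42 (adjusted p = 0.999 in edgeR). Scaled by library totals alone, the log2 differences of Epcam, Sox9 and Cd44 became -0.49, -0.51 and -0.39 (adjusted p = 0.106, 0.135 and 0.274 in edgeR).

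**Figure D1:**
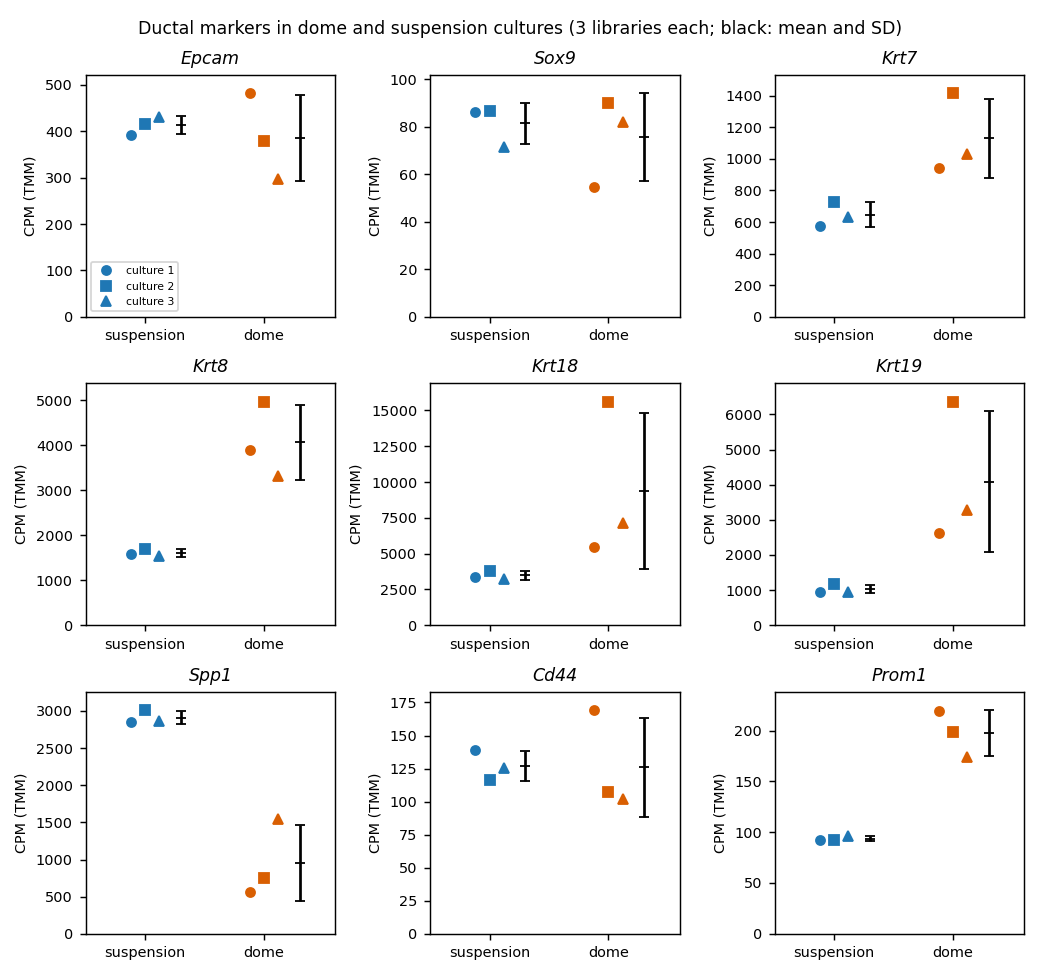
TMM-scaled CPM (y axis, linear, from 0) of the 9 ductal markers in 3 suspension (blue) and 3 dome (orange) cultures, where the symbol gives the culture number and black bars the mean and SD. The 4 keratins and Prom1 lie higher in every dome and Spp1 lower, while Epcam, Sox9 and Cd44 overlap.

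Other genes of the ductal programme were read from a list of 40, of which 35 were tested. In domes 18 were higher, 4 were lower and 13 did not pass the test, with a median log2 difference of 0.68 against -0.04 over all genes tested. Examples of genes that were higher are the mucosal peptide Tff2 (log2 difference 4.24, SE 0.94), the tight junction protein Cldn4 (2.12, SE 0.59) and the epithelial transcription factor Elf3 (1.95, SE 0.45). The RNA-binding protein Bicc1 (-1.69, SE 0.32) and the transcription factor Onecut2 (-1.58, SE 0.26) were lower. Of the other keratins, 8 were tested, 3 higher and 2 lower, led by the type I keratin Krt20 at 1196 ± 192 CPM in domes and 172 ± 61.4 CPM in suspension (SD, n = 3 each; log2 difference 2.80, SE 0.31, adjusted p = 0.000813 in edgeR). Krt23, which also counts among the other ductal genes, was 2.27-fold higher.

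Ligands, receptors and binding partners of the 9 genes made up a list of 14, of which 11 were tested, 4 higher, 2 lower and 5 not passing. Cldn7, a claudin that binds Epcam (fold 1.97), and the desmosomal plaque protein Pkp3 (fold 2.81) were higher. Msn, which ties Cd44 to actin, was at 9.63 ± 1.37 CPM in domes and 41.8 ± 7.12 CPM in suspension (SD, n = 3 each; log2 difference -2.12, SE 0.23). Sox4, a Sox factor of ductal development, was 6.36-fold higher in suspension.

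Markers of other cell types and of cell division moved with the culture format too. Of 10 hepatocyte markers tested 6 were higher and 1 was lower in domes (median log2 difference 1.89), and their summed level was 1016-1560 CPM in domes and 427-774 CPM in suspension. All 6 proliferation markers were lower in domes, with sums of 125-250 CPM against 499-590 CPM. Of 3 macrophage markers tested, Cd68 was higher and Cd14 lower. The part of these in the differences of the ductal markers was not tested, and in bulk samples fewer cells of a type and less RNA per cell cannot be told apart.

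To assess how the markers changed with time in culture, passage 11 was compared with passage 4 in the same 3 sets. Of the 9 markers 2 passed the test, Krt7 higher and Cd44 lower at passage 11. That share is near the 20.3% of 13738 genes tested that were called (10.1% in each direction). Cd44 was at 211, 229 and 259 CPM in Sets 1, 3 and 4 at passage 4 and at 106, 130 and 134 CPM at passage 11. It was lower at passage 11 in each set, without overlap between the passages, as were 20.3% of all genes. Passage 4 exceeded passage 11 1.9-fold (log2 difference -0.92, SE 0.15, adjusted p = 0.00337 in edgeR). Krt7 was at 550, 608 and 602 CPM at passage 4 and at 820, 839 and 761 CPM at passage 11. It was higher in each set, without overlap, as were 19.2% of all genes. The fold was 1.37 (log2 difference 0.46, SE 0.13, adjusted p = 0.0314 in edgeR), and the call did not survive the omission of Set 1, 3 or 4 at passage 4 (adjusted p = 0.0697, 0.0802 and 0.0791 in edgeR) or of Set 3 at passage 11 (adjusted p = 0.111 in edgeR).

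The other keratins of the marker set did not pass the test. Krt18 was at 3578, 3173 and 3273 CPM at passage 4 and at 3774, 3148 and 3132 CPM at passage 11, and the interval of the fold ran from 0.802 to 1.25. Krt8 was at 920, 968 and 875 CPM and then at 1085, 1267 and 937 CPM, a rise in value within each set that did not pass the test (log2 difference 0.25, SE 0.15, adjusted p = 0.264 in edgeR). Krt19 went from 829 to 1079 CPM in Set 1 and from 862 to 1138 CPM in Set 3 but from 880 to 717 CPM in Set 4 (adjusted p = 0.483 in edgeR).

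Sox9 and Spp1 moved in opposite directions among the sets in value, without passing the test over all sets. Sox9 went from 115 to 92.4 CPM in Set 1, from 69.0 to 112 CPM in Set 3 and from 63.8 to 121 CPM in Set 4 (log2 difference over the sets 0.39, SE 0.22, adjusted p = 0.236 in edgeR). Without Set 1 at passage 4, Sox9 passed the test (log2 difference 0.70, adjusted p = 0.0241 in edgeR). Spp1 went from 1172 to 2918 CPM in Set 1, from 3773 to 3255 CPM in Set 3 and from 2917 to 3479 CPM in Set 4. The low value of Set 1 at passage 4 set it apart from the 5 other cultures, and the test was not passed (adjusted p = 0.564 in edgeR). Between technical replicates of a culture Spp1 differed by at most 1.12-fold and Sox9 by at most 1.28-fold.

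In value, Epcam was lowest in Set 1 at both passages, and the sets were not compared by a test. It was at 413 CPM in Set 1 at both passages, and in Sets 3 and 4 at 546 and 609 CPM at passage 4 and 614 and 622 CPM at passage 11 (adjusted p = 0.836 in edgeR). Prom1 was also lowest in Set 1, at 102 CPM at passage 4 and 81.4 CPM at passage 11. In Sets 3 and 4 it was at 141 and 164 CPM at passage 4 and at 149 and 122 CPM at passage 11 (adjusted p = 0.569 in edgeR).

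**Figure D2:**
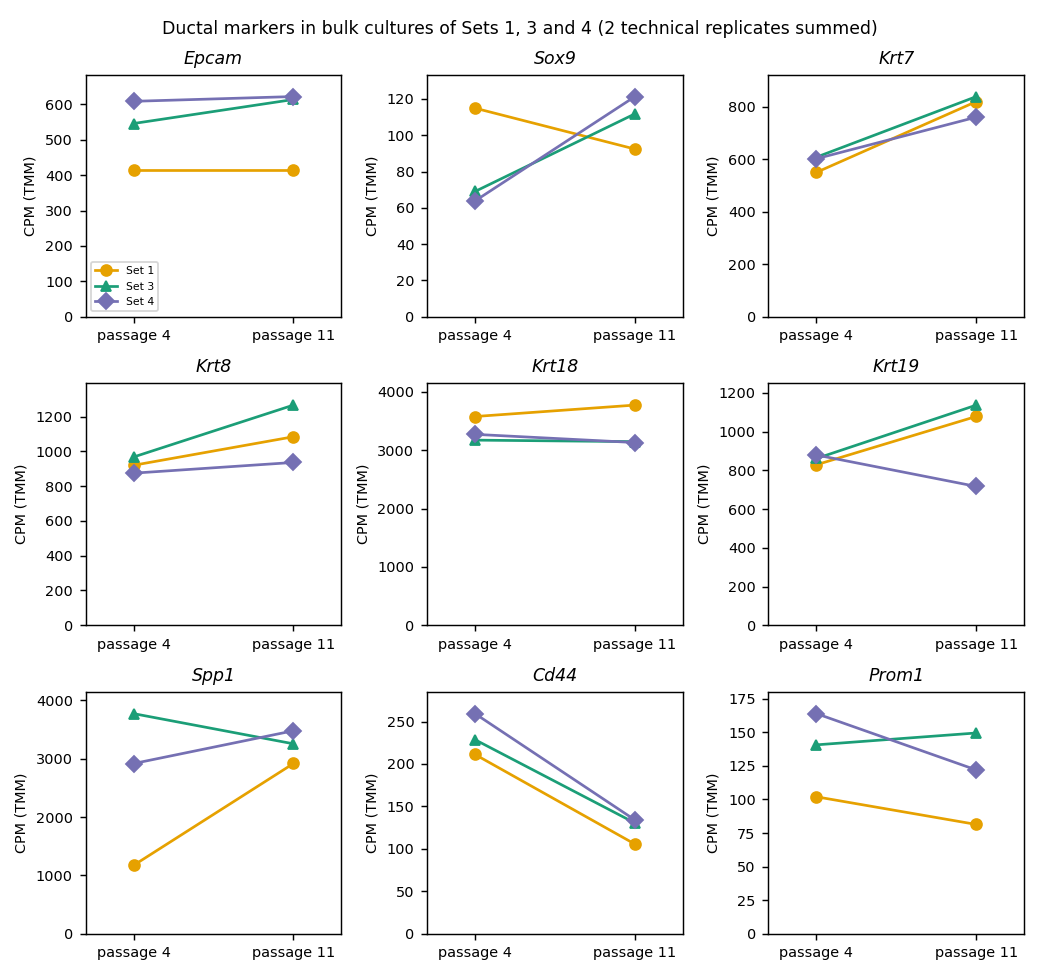
TMM-scaled CPM (y axis, linear, from 0) of the 9 ductal markers at passage 4 and passage 11 in the bulk libraries, with a line for each of Sets 1, 3 and 4. Lines of Krt7 rise and lines of Cd44 fall in all 3 sets, whereas those of Sox9, Krt19 and Spp1 cross.

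Of the 35 other ductal genes tested, 1 was higher, 8 were lower and 26 did not pass the test at passage 11 (median log2 difference -0.28 against -0.05 over all genes). The mucin Muc1 (log2 difference -2.51, SE 0.34), Cldn4 (-2.41, SE 0.41) and the laminin chain Lamb3 (-0.98, SE 0.17) were lower. Among ligands and partners none was higher and 4 of 11 were lower, including Itgav, an integrin chain that binds Spp1 (-1.48, SE 0.24), Sox4 (-1.44, SE 0.16) and Plec, a linker of keratin filaments (-0.71, SE 0.20). Of the other keratins 9 were tested, 2 higher and 1 lower. Proliferation markers were higher at passage 11 for 5 of 6 genes, with sums of 504-674 CPM against 230-259 CPM at passage 4. Hepatocyte markers gave 2 higher and 1 lower of 8, with overlapping sums. Cd14, a macrophage marker, was lower (469 ± 131 against 1038 ± 159 CPM, SD, n = 3 each). The mitochondrial share of counts was 1.99-2.63% at passage 4 and 0.895-1.71% at passage 11, without overlap. The part of these in the change of Cd44 and Krt7 was not tested.

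To interrogate differences between single organoid cultures, Sets 1 to 4 were compared in all 6 pairs, with adjustment over all of them. Spp1, Krt19 and Prom1 differed between at least 1 pair of sets, and the other 6 markers in none. Of 54 tests of the 9 markers 7 were called, against 11.9% of all tests. For single pairs the share of genes called was 14.3% for Sets 1 and 2, where 3 markers were called, 9.43% for Sets 1 and 3, with 2 markers called, and 20.0% for Sets 1 and 4, with none. It was 3.93% for Sets 2 and 3, with none, 12.4% for Sets 2 and 4, with 1, and 11.6% for Sets 3 and 4, with 1. Since each set enters 3 comparisons, these are not independent of each other.

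Spp1 split the sets most clearly. Its lowest, median and highest values were 1200, 1702 and 2423 CPM in Set 1, 1631, 3053 and 5305 CPM in Set 2, 2839, 3390 and 4076 CPM in Set 3, and 1410, 1996 and 3117 CPM in Set 4. All 5 organoids of Set 3 were above all 8 of Set 1, as 2.09% of all genes were. Set 1 was lower than Set 2 (log2 difference -0.81, SE 0.18, adjusted p = 0.00232 in edgeR) and than Set 3 (-0.95, SE 0.21, adjusted p = 0.00215 in edgeR). Set 4 was lower than both as well (Set 2 minus Set 4, 0.60, SE 0.16, adjusted p = 0.0120 in edgeR; Set 3 minus Set 4, 0.74, SE 0.20, adjusted p = 0.0103 in edgeR). Sets 1 and 4 did not differ by the test (adjusted p = 0.453 in edgeR), nor did Sets 2 and 3 (adjusted p = 0.715 in edgeR). In the order of medians, Set 1 and Set 4 were therefore neighbours within their spread, as were Set 2 and Set 3.

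Krt19 had its highest median in Set 1, close to that of Set 4. Its lowest, median and highest values were 368, 465 and 1049 CPM in Set 1, 273, 330 and 546 CPM in Set 2, 279, 404 and 445 CPM in Set 3, and 327, 445 and 675 CPM in Set 4. In Set 1, organoids 1 and 6 lay at 953 and 1049 CPM and organoid 5 at 715 CPM, and the other 5 at 368-471 CPM. Organoids 1 and 6 also had the highest library totals of Set 1, at 11175868 and 5595426 counts. Organoid 5 had 2244106 counts, fewer than organoids 3 and 4 among the other 5, at 4638927 and 3814710. The part of depth in these levels was not tested. Set 1 exceeded Set 2 1.69-fold (log2 difference 0.76, SE 0.19, adjusted p = 0.00517 in edgeR) and Set 3 1.64-fold (0.72, SE 0.23, adjusted p = 0.0338 in edgeR). Against Set 4 the fold of 1.28 did not pass the test (log2 difference 0.36, SE 0.18, adjusted p = 0.188 in edgeR). The call against Set 3 was lost without organoid 3, 4 or 6 of Set 3 (adjusted p = 0.100, 0.0819 and 0.0510 in edgeR), with limma-voom (adjusted p = 0.0528) and with all 42 libraries (adjusted p = 0.101 in edgeR). Prom1 was at 83.3 ± 25.8 CPM in Set 1 (SD, n = 8) and 57.5 ± 15.5 CPM in Set 2 (SD, n = 10), a fold of 1.46 (log2 difference 0.54, SE 0.16, adjusted p = 0.0228 in edgeR). That call was lost with all 42 libraries (adjusted p = 0.0899 in edgeR).

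Krt7, Krt8 and Krt18 had similar medians in the 4 sets, at 342-418 CPM, 734-847 CPM and 1744-2347 CPM. Epcam had medians of 460, 608, 565 and 484 CPM in Sets 1 to 4. Within Set 2 it spanned 209 to 1242 CPM, a 5.94-fold range, where organoids 2 and 6 were at 209 and 243 CPM. The same 2 organoids, singled out after their values were seen, had the lowest Sox9 of all 35, at 25.9 and 32.2 CPM, and the highest level of Fah, a hepatocyte enzyme of tyrosine breakdown, at 40.7 and 34.9 CPM. In the 33 other organoids Fah lay between 5.19 and 19.6 CPM. Organoids 2 and 6 also had the lowest library totals of Set 2, at 1298591 and 1180937 counts, and the part of depth was not tested. Cd44 had medians of 166, 186, 244 and 180 CPM in Sets 1 to 4 and did not pass the test between any sets.

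**Figure D3:**
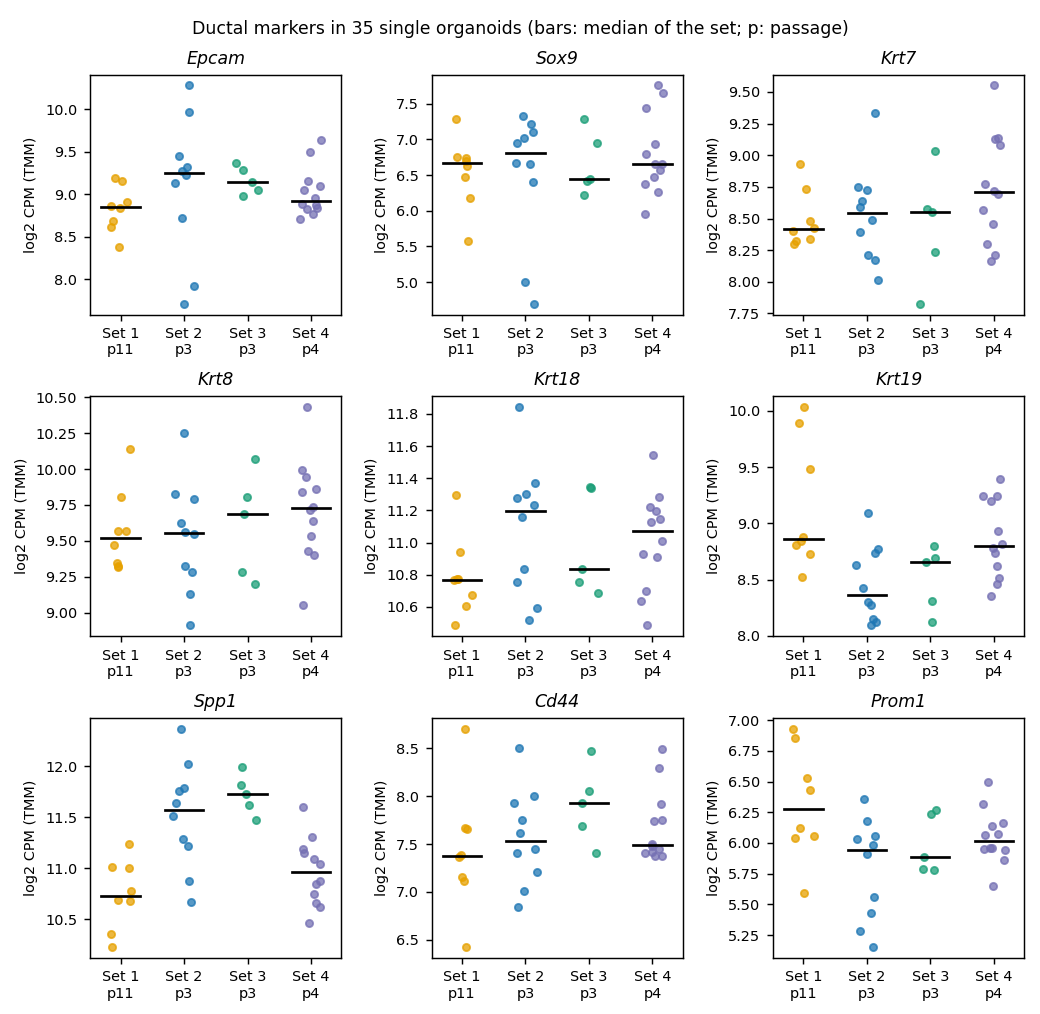
Log2 of TMM-scaled CPM (y axis, not from 0) of the 9 ductal markers in the 35 single organoids by set, 1 point for each organoid, with black lines at the medians. Spp1 lies lower in Sets 1 and 4 than in Sets 2 and 3, 3 organoids of Set 1 have the highest Krt19, and 2 organoids of Set 2 stand low in both Epcam and Sox9.

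Other genes separated Set 1 further than the 9 markers did. Krt20 was at 310 ± 168 CPM in Set 1 (SD, n = 8), 60.1 ± 16.0 CPM in Set 2 (SD, n = 10), 32.0 ± 3.94 CPM in Set 3 (SD, n = 5) and 27.8 ± 6.81 CPM in Set 4 (SD, n = 12). Its log2 differences between Set 1 and Sets 2, 3 and 4 were 2.38 (SE 0.22), 3.28 (SE 0.31) and 3.49 (SE 0.22). Krt23 was at 332 ± 86.4 CPM in Set 1 and at 88.8-142 CPM on average in the other sets. Of 35 other ductal genes tested 11 were higher and 3 lower in Set 1 than in Set 2, 7 higher and 7 lower than in Set 3, and 7 higher and 2 lower than in Set 4. The background was 7.08% higher and 7.19% lower over all genes for Set 2, 4.3% and 5.13% for Set 3, and 12.4% and 7.6% for Set 4. Between the other sets, the list gave 0 higher and 7 lower in Set 2 than in Set 3 (background 2.05% and 1.88%), 2 higher and 7 lower in Set 2 than in Set 4 (7.02% and 5.35%), and 9 higher and 2 lower in Set 3 than in Set 4 (7.89% and 3.67%). The membrane protein Tm4sf4 and the annexin Anxa13 were among the genes higher in Set 1 than in Set 2 (log2 difference 2.94, SE 0.32, and 2.08, SE 0.24). Muc1 was lower in Set 1 than in each other set (log2 difference -1.41, SE 0.22, to -2.01, SE 0.25). Of the ligands and partners, Sox4 was lower in Set 1 than in each other set (log2 difference -1.21, SE 0.27, to -2.05, SE 0.32), and Msn was lower than in Sets 2 and 3. Beside these, 4 of 9 hepatocyte markers were higher in Set 1 than in Set 2, 3 than in Set 3 and 5 than in Set 4. Proliferation markers were lower for 3, 0 and 4 of 6 genes in the same order. Of 3 macrophage markers 1 was lower in Set 1 than in Set 2 and 1 than in Set 3, and of 2 endothelial markers 1 was higher than in Set 2 and 1 than in Set 4. The part of either in the values of the ductal markers was not tested.

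To examine whether the markers vary together from organoid to organoid, log2 CPM values were correlated across the 35 organoids after the mean of each set was subtracted. Of 36 pairs of markers 20 were called in a two-sided permutation test, 12 positive and 8 negative. The 4 keratins rose and fell together, Epcam, Sox9 and Cd44 went with one another, and Spp1 went with Krt7, Krt8 and Krt18. Epcam and Sox9 ran against Krt8 and Krt18, and Cd44 ran against Krt7, Krt8, Krt18 and Spp1. Without organoids 2 and 6 of Set 2, 3 of these calls were lost in the permutation test, those of Epcam with Cd44 (r 0.28, adjusted p = 0.191), Krt7 with Spp1 (r 0.39, adjusted p = 0.0580) and Krt8 with Spp1 (r 0.42, adjusted p = 0.0571). Other pairs were newly called in the same test: Epcam with Krt7 (r -0.50, adjusted p = 0.0111), Epcam with Krt19 (r -0.46, adjusted p = 0.0162) and Sox9 with Krt7 (r -0.50, adjusted p = 0.0106). In Sets 1, 2 and 4 r was 0.10, 0.87 and 0.13 for Krt7 with Spp1 and 0.05, 0.91 and 0.12 for Krt8 with Spp1. For Sox9 with Krt8 it was -0.35, -0.02 and -0.89. By rho 22 pairs were called. These left out Spp1 with Cd44 (permutation test, adjusted p = 0.0607) and added Epcam with Krt7 and Krt19 and Sox9 with Krt7. Organoids of a set share their mouse and culture, and the libraries share a scaling. Broad correlation was common in these data after the set means were subtracted, and its cause was not tested. Over 18822180 pairs of 6136 genes the quartiles of r were -0.40 and 0.41. Of these pairs 19.2% had r of at least 0.5 and 18.2% had r of -0.5 or less. Of the 36 pairs of markers 9 and 2 did so. The weakest called pairs were Krt7 with Spp1 (r 0.39) and Sox9 with Krt8 (r -0.41). Of all gene pairs 26.3% had a higher r than the first and 24.4% a lower r than the second. The share of all gene pairs that the permutation test would call was not computed. The count of 20 of 36 is therefore not read as above the background.

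The promoter sequences of Krt8 and Krt18, shown above, belong to the pair with the highest r among the markers. For Krt8 and Krt18 r was 0.93 (permutation p = 1e-05, the smallest that 100000 permutations can give, adjusted p = 6e-05) and rho 0.92 (permutation p = 1e-05), and only 0.0357% of gene pairs had a higher r. Within Sets 1, 2 and 4 it was 0.88, 0.94 and 0.96, and without the 2 organoids of most extreme Krt8 it was 0.91. Krt7 and Krt8 gave r of 0.93 and rho of 0.93 (permutation p = 1e-05 for both), and r was 0.90 without the 2 most extreme organoids. For the 6 pairs among the 4 keratins r lay between 0.71 and 0.93 and each was called. The lowest of them was Krt7 with Krt19, which had r of 0.71 and rho of 0.74 (permutation p = 1e-05 for both) and r of 0.65 without the 2 most extreme organoids.

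Epcam and Sox9 gave r of 0.76 (permutation p = 3e-05, adjusted p = 0.000154) and rho of 0.63 (permutation p = 0.00023). This relation rested partly on organoids 2 and 6 of Set 2, without which r was 0.49, and the sets differed: r was 0.23 in Set 1, 0.86 in Set 2 and 0.89 in Set 4. Sox9 and Cd44 gave r of 0.55 (permutation p = 0.00097, adjusted p = 0.00388) and rho of 0.57 (permutation p = 0.00055), with 0.92, 0.56 and 0.28 in Sets 1, 2 and 4 and 0.48 without organoids 2 and 6 of Set 2. Of all gene pairs 16.0% had a higher r than Sox9 and Cd44, and 3.73% a higher r than Epcam and Sox9.

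Epcam ran against Krt18 with r of -0.56 (permutation p = 0.00262, adjusted p = 0.00857) and rho of -0.69 (permutation p = 3e-05). The value was -0.92 in Set 1, -0.50 in Set 2 and -0.86 in Set 4, and -0.65 without organoids 2 and 6 of Set 2. Of all gene pairs 14% had a lower r. Krt18 ran against Cd44 with r of -0.58 (permutation p = 0.00032, adjusted p = 0.00144) and rho of -0.66 (permutation p = 0.00014), with -0.29, -0.84 and -0.44 in Sets 1, 2 and 4. Without the 2 organoids of most extreme Krt18 the value was -0.54. With library totals in place of TMM the relation of Epcam and Krt18 was no longer called (r -0.45, adjusted p = 0.0657), and that of Krt18 and Cd44 was (r -0.61, adjusted p = 0.00027).

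Spp1 went with Krt18 (r 0.50, permutation p = 0.0058, adjusted p = 0.0161; rho 0.45, permutation p = 0.0103), but the sets disagreed, since r was 0.06 in Set 1, 0.94 in Set 2 and 0.25 in Set 4. Without the 2 organoids of most extreme Krt18, both of Set 2, r was 0.33. Prom1 was called with none of the other 8 markers, and its r with them lay between -0.05 and 0.38. The highest was with Krt19 (permutation test, adjusted p = 0.0821). That pair was called in the same test with libraries thinned to the smallest total (r 0.43, adjusted p = 0.0453) and with all 42 libraries (r 0.42, adjusted p = 0.0254).

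**Figure D4:**
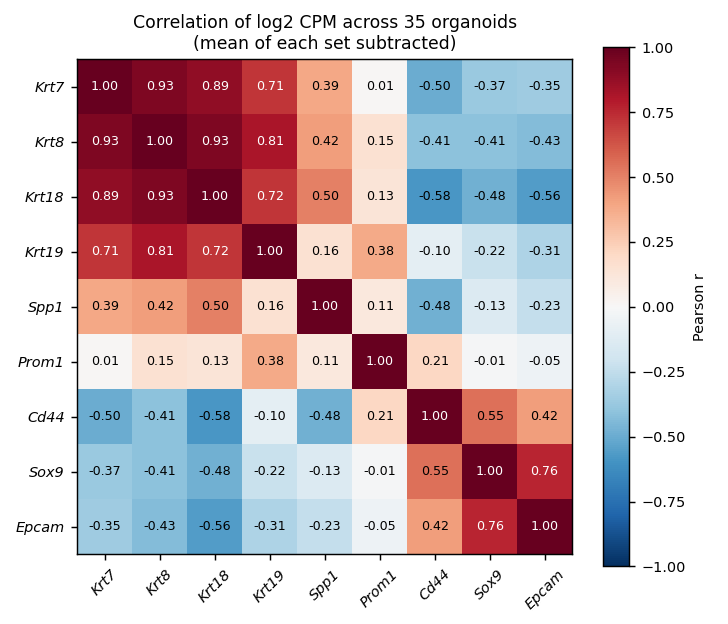
Pearson r between the log2 CPM of the 9 markers across 35 single organoids after the mean of each set was subtracted (red positive, blue negative, scale from -1 to 1). The 4 keratins form a block with r of 0.71 to 0.93, and Epcam, Sox9 and Cd44 are negative with Krt7, Krt8 and Krt18.

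**Figure D5:**
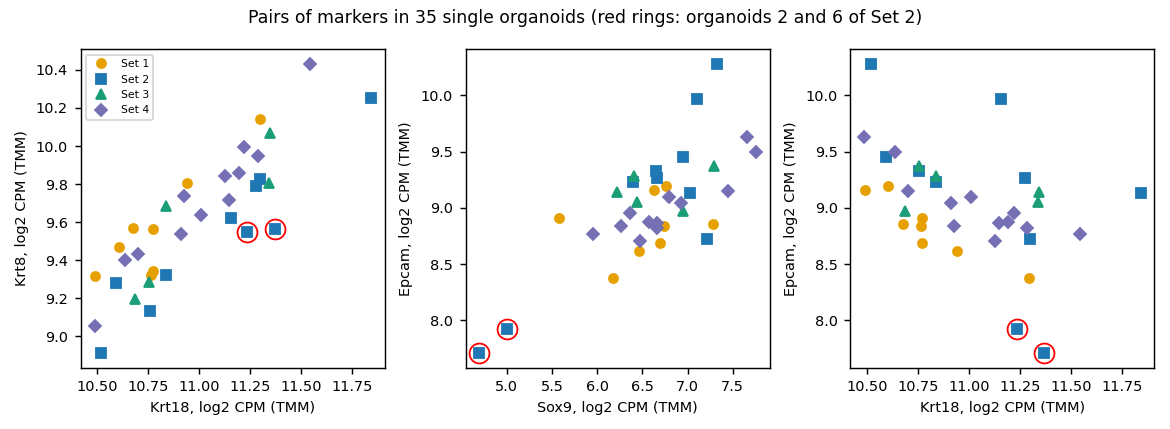
Log2 of TMM-scaled CPM of Krt8 against Krt18, Epcam against Sox9 and Epcam against Krt18 in 35 single organoids (symbols and colours give the set). Krt8 follows Krt18 in all sets, and the ringed organoids 2 and 6 of Set 2 lie far below the others in Epcam and Sox9.

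Depth moved with some of the markers. The log2 library total went with Krt19 (r 0.58, permutation p = 0.00138, adjusted p = 0.00621; rho 0.50, permutation p = 0.00554), Krt8 (r 0.55, permutation p = 0.00052, adjusted p = 0.00468; rho 0.49, permutation p = 0.00296), Krt7 (r 0.38, permutation p = 0.0197, adjusted p = 0.0460; rho 0.37, permutation p = 0.0327) and Krt18 (r 0.38, permutation p = 0.0205, adjusted p = 0.0460; rho 0.33, permutation p = 0.0514). Without the 2 libraries of most extreme total these r values were 0.46, 0.48, 0.26 and 0.30. The 5 other markers were not called with the total. With the library total held constant 20 of 36 pairs of markers were called in the permutation test, but not the same 20. Sox9 with Krt8 (r -0.40) and Krt7 with Spp1 (r 0.37) were no longer called (permutation test, adjusted p = 0.0546 for both), and Epcam was called with Krt7 (r -0.39, permutation test, adjusted p = 0.0417) and Krt19 (r -0.40, permutation test, adjusted p = 0.0288). With all libraries thinned to the smallest total r was again called for each pair of keratins. As a description, the summed proliferation markers had r of -0.49 to -0.66 with the 4 keratins and of 0.46 with Epcam.

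The markers also differed in how much they varied within a set. The SD of log2 CPM within sets was 0.66 for Sox9, exceeded by 3.62% of the 6136 genes, and 0.49 for both Epcam and Cd44, exceeded by 21.6%. For the keratins it was 0.33-0.40, for Spp1 0.38 and for Prom1 0.34, near the median of all genes of 0.38.

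For each marker the genes with the most similar pattern across the 35 organoids were listed by Pearson r, as a description. Krt8 and Krt18 were nearest to each other, and Krt18 was followed by Prmt1 (r 0.93). Krt7 was nearest to Krt8 (r 0.93), then to Krt18 (r 0.89) and Traf4 (r 0.87). Krt19 was nearest to Krt8 (r 0.81). Epcam was nearest to Pdia3 (r 0.88), Sox9 to Timmdc1 (r 0.87) and Cd44 to Efnb1 (r 0.84). Spp1 and Prom1 had less similar neighbours, Igfbp7 for Spp1 (r 0.74) and the transmembrane protease Tmprss2 for Prom1 (r 0.69).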

How the data were processed

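The count tables deposited by the authors hold whole-number counts per gene and library from 3′-end libraries. According to the methods of the study they were made with zUMIs on GRCm38 (STAR, featureCounts), with libraries down-sampled depending on the variability of their sizes. The submitters' processing notes list SAMtools 1.9, R 3.6.3, edgeR 3.28.1 and limma 3.42.2. The sources used here give neither whether the counts are UMIs or reads nor the culture format of the bulk passage libraries. The single organoid input had been normalised by Actb qPCR.

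Here, genes were kept by filterByExpr (minimum count 3), which left 12699, 13738 and 13927 genes in the culture, passage and single organoid experiments. Counts were TMM-scaled and tested with edgeR 4.0.16 quasi-likelihood F-tests in R 4.3.3, with Benjamini-Hochberg adjustment over all genes (and over all 6 comparisons of sets) at 0.05. Standard errors were derived from the F statistic. Gene spans are from GENCODE. Correlations used log2 CPM with a prior count of 0.5 and permutation within sets, adjusted over 36 pairs. Thinning was by binomial draws. limma-voom 3.58.1 and DESeq2 1.42.0 were alternatives.

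The markers, gene lists and tests were chosen with earlier results of these data known. From each list the text names genes among the 3 largest called changes in each direction with a mean log2 CPM of at least 4. For same-numbered domes and suspension cultures the deviations from group means had r of 0.133, 0.153 and 0.188 over genes. Differently numbered cultures were not compared, so these values cannot show that the number pairs them. The study describes both formats as the same organoids, but the sources used here do not say which number belongs to which pool. Pairing by number was therefore an assumption, used only in the replicate block. The bulk passage cultures are paired by mouse (r 0.0283-0.098). Replicates are not stated to be separate cultures beyond the pools and mice. The lowest chi-square per degree of freedom between replicates was 4.61 for cultures, 2.19 for single organoids and 1.08 for technical replicates, so none was taken as the same library deposited again. The scripts were tested on simulated data.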

Additional observations from a re-analysis of the deposited data

Results flagged for a closer look

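In 27 groups of 5 to 10 organoids (9 markers in Sets 1, 2 and 3), 2 held an organoid set apart from the others by Dixon's criterion, which flags about 1 in 20 groups by chance. Cd44 was at 418 CPM in organoid 5 of Set 1, where the next highest organoid was at 204 CPM (gap over range 0.645). The same organoid had the highest Sox9 of its set, at 156 CPM. Krt7 was at 646 CPM in organoid 11 of Set 2, where the next was at 430 CPM (gap over range 0.558), and this organoid also had the highest Krt8, Krt18, Krt19 and Spp1 of its set.

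Between passage 4 and passage 11, 3 markers had technical replicates that moved wholly one way in some sets and the other way in others. Sox9 changed by -0.32 on the log2 scale in Set 1, by 0.70 in Set 3 and by 0.93 in Set 4. Krt19 changed by 0.38 in Set 1, 0.40 in Set 3 and -0.29 in Set 4. Spp1 changed by 1.316 in Set 1, -0.21 in Set 3 and 0.25 in Set 4. Each set is 1 mouse with 1 culture at each passage, so the difference between sets was not tested.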

How the results depend on the processing

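Between domes and suspension 6 markers were called, and the count stayed between 4 and 6 under every alternative, 5 with library totals alone and 4 without any 1 suspension culture. At passage 11 the 2 calls became 1 with no filter on low counts and with technical replicate 1 only, and they ranged from 1 to 2 when 1 culture was left out. Each drop to 1 was the loss of Krt7. Without Set 1 at passage 4 Krt7 was lost and Sox9 passed. Over the 6 comparisons of sets the 7 calls ranged from 6 to 7 when 1 organoid of Set 3 was left out and from 5 to 7 over the other alternatives, except for 9 without organoids 2 and 6 of Set 2. Those 2 organoids have the lowest Epcam of that set and both added calls are of Epcam, so these are no independent test. The 20 correlated pairs became 12 with library totals alone, an alternative chosen after seeing the data, where pairs of Epcam or Sox9 with Krt8 and Krt18 and the pairs of Spp1 were no longer called. The cause was not tested. No called value changed sign. The replicate block, which pairs same-numbered cultures or the same mouse, changed no call of a marker: 6 and 2 markers and 7 of the 54 tests between sets were called with the block. Single organoids of different sets share only a number (correlation of deviations -0.31 to 0.345, median 0.0465). Over all genes, thinning to the smallest total gave 1745 calls between passages in place of 2784, and leaving out suspension culture 1, 2 or 3 gave 1893, 2209 and 1926 calls between culture formats in place of 3779. Of the alternative values of single markers, 119 kept their side of the threshold and 7 lost it between culture formats, 137 kept it, 6 lost it and 1 gained it between passages, and 856 kept it, 6 lost it and 2 gained it between sets. The intervals given for Epcam, Sox9 and Cd44, with 3 libraries a group, are not limits of detection. In counts simulated for domes and suspension, 97 of 12699 genes were changed 2-fold and 98 were changed 4-fold. Of these 10.3% and 78.6% were called, and 10.3% of all calls were false.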

Other observations

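The 7 single organoids left out by the quality control of the study had 666660 to 1152914 counts, and their marker levels were read on a scaling of all 42 libraries. Organoid 10 of Set 1, organoid 8 of Set 2 and organoid 2 of Set 3 had Epcam at 208, 275 and 225 CPM, Sox9 at 31.3, 36.7 and 38.7 CPM and Fah at 29.0, 34.7 and 26.2 CPM. These values are close to those of organoids 2 and 6 of Set 2 among the 35 organoids used. All were small libraries, with 962466, 1152914 and 804990 counts here and 1298591 and 1180937 in organoids 2 and 6. The part of depth in these values was not tested. The keratin Krt18 was at 2712, 2398 and 2483 CPM in the 3 organoids. The other 4 organoids left out, with 666660 to 1013166 counts, had Epcam at 350-654 CPM, Sox9 at 55.1-177 CPM and Fah at 9.14-16.2 CPM.

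Within a library, the ratio of Krt8 to Krt18 counts, which no scaling can change, was 0.286 and 0.312 in organoids 2 and 6 of Set 2, the lowest of the 35, and 0.290, 0.305 and 0.316 in the 3 organoids named above. Over all of Set 2 it was 0.286-0.403 (median 0.339) and over Set 1 0.369-0.465 (median 0.446), and the 8 organoids of Set 1 overlapped with those of Set 2. The markers made up 0.565-1.16% of the counts of a single organoid, 0.780-1.09% of a bulk passage culture, 1.14-1.23% of a suspension culture and 1.28-2.17% of a dome.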
